A study of Mus musculus with 6 samples.

Results

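The 10 genes described here code for inhibitors and promoters of vascular calcification, and were taken from the 55341 genes of a count table of mouse aorta by their symbols. The inhibitors were *Mgp*, *Ahsg*, *Spp1*, *Enpp1* and *Tnfrsf11b*, and the promoters were *Alpl*, *Bmp2*, *Bmp4*, *Runx2* and *Sox9*. All 10 were among the 16017 genes that passed the filter on low counts. RNA was sequenced from the aortic arch and thoracic aorta of 3 miRNA-26b-/- and 3 miRNA-26b+/+ mice of 8 weeks of age on chow diet, as 1 library per mouse, to ask which transcripts of the vessel wall differ without miRNA-26b. The labels give C57BL/6NCrl as the strain of both groups. The null allele was made in embryonic stem cells of 129/Sv origin by flanking the miRNA-26b hairpin in an intron of *Ctdsp1* with loxP sites, and founders were crossed with C57BL/6 mice. The hairpin was removed with a tamoxifen-induced CreERT2 that was afterwards bred out, so the mice carry an inherited null allele and lack both the 5p and the 3p arm. The labels call the miRNA-26b+/+ mice naive.

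The genes were selected on their roles in calcification and with their counts in miRNA-26b-/- against miRNA-26b+/+ libraries in view, so these values are given below as a description, without a test. *Mgp* was one of the most abundant transcripts of the aorta and had close mean levels in both genotypes. *Ahsg* was lower in each of the 3 miRNA-26b-/- aortas than in any miRNA-26b+/+ aorta, with a 5.33-fold difference of means, and *Alpl* was lower in the same way with a 1.34-fold difference. The other 8 genes overlapped between the genotypes. In the pathways around these genes, *Sparc* and *Smad6* had higher levels in miRNA-26b-/- aortas and *Tnfrsf11a*, *Smad7*, *Itgb1* and *Sost* lower levels at unadjusted p-values under 0.05, and no gene of these pathways passed adjustment over all genes. Of these 6, *Sparc* and *Tnfrsf11a* kept the unadjusted call in 14 of 14 alternatives and the other 4 lost it in 2 to 4 of them. A further 4 genes, *Eng*, *Itga5*, *Itga9* and *Col11a2*, had the call and kept it in 11, 9, 9 and 7 of 14 alternatives. In all, 10 of the 90 pathway genes tested had it (11.1%, against 6.47% of all genes tested). Nothing is read from this share, because the lists were also chosen with earlier results of these data known.

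Calcification of the arterial wall is the deposition of calcium phosphate mineral in its media or intima, and it is held in check by local and circulating inhibitors. Pyrophosphate, made outside the cell from ATP by ENPP1, blocks crystal growth, and tissue-nonspecific alkaline phosphatase, the product of *Alpl*, removes it. Matrix Gla protein binds mineral and bone morphogenetic proteins (BMPs), while BMP2 and BMP4 signal through SMAD proteins towards RUNX2 and SOX9, the master transcription factors of bone and cartilage, which smooth muscle cells can switch on when a vessel calcifies. Fetuin-A, coded by *Ahsg*, is a plasma protein made mainly by hepatocytes that keeps calcium phosphate in solution.

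Mature miRNA-26b-5p and its closest relative, miRNA-26a-5p, share their seed, the bases by which a miRNA pairs with its targets, while the other arm of the deleted hairpin has a different seed. These sequences are shown because the first and the last of them, in the order below, are the ones the deletion removes and miRNA-26a-5p is the one it leaves in place. They are from RefSeq on GRCm38.p6, are written 5′ to 3′ and have the seed, bases 2 to 8, in capitals.
mmu-miR-26b-5p: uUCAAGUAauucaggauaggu
mmu-miR-26a-5p: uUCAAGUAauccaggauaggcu
mmu-miR-26b-3p: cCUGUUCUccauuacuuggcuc
The first lies at chr1:74394324-74394344 on the forward strand, inside *Ctdsp1*, and miRNA-26a-5p comes from a hairpin on chromosome 9 and another on chromosome 10.

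Sites of the miRNA-26b-5p seed were searched on the transcript strand in the longest annotated 3′ UTR of each gene. The letters were TACTTGAA for the longest match, TACTTGA for the match to bases 2 to 8 and ACTTGAA for the match to bases 2 to 7 with an A opposite base 1, and both shorter ones lie within the longest. The longest match and TACTTGA were not found in these windows of the 10 genes. The letters ACTTGAA were found in *Enpp1* and in *Tnfrsf11b*, each with 10 flanking bases shown here and the match in capitals.
Enpp1: aggaactcacACTTGAActttgaaaca
Tnfrsf11b: tttctcaagcACTTGAAacggcccagt
The *Enpp1* stretch as printed lies at chr10:24638811-24638837 of GRCm38, on the reverse strand, and its match starts at base 2979 of a 3′ UTR of 3892 bases. The *Tnfrsf11b* stretch lies at chr15:54251903-54251929, also on the reverse strand, with its match at base 75 of 1375. Any of the matches occurred in 2 of the 10 genes (20.0%), against 18.3% of the 21022 genes with an annotated 3′ UTR and 21.4% of those tested, so the share among the 10 was close to that of all genes. The same letters pair with the seed of miRNA-26a-5p.

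The libraries held 25706728 to 33345037 counts each, with a TMM normalisation factor (a correction of library size for composition) between 0.982 and 1.015 and 17744 to 19287 genes detected. *Mir26b*, the hairpin gene, had 20 counts in 1 miRNA-26b+/+ library and 0 in the other 5. Libraries of long RNA are not made to capture it, so it does not check the genotypes. Its host gene *Ctdsp1* had 5127 to 6121 counts without and 4549 to 5426 counts with miRNA-26b. These counts are not scaled to library size. Scaled to it, each miRNA-26b-/- library was above each miRNA-26b+/+ library, as for 6.13% of all genes tested. The labels describe the cells as endothelial, but the summed level of 7 smooth muscle markers was 33124 to 43236 CPM (counts of a gene per 1000000 counts of its library) and that of 7 endothelial markers 428 to 1755 CPM, so the libraries are described here as aorta. The endothelial sum split the libraries against their genotype, at 428 and 469 CPM in miRNA-26b-/- mice 1 and 2 and 1755 CPM in miRNA-26b-/- mouse 3, against 1221 to 1643 CPM in the miRNA-26b+/+ mice. Over all genes, 1 (0.00624%) had a Benjamini-Hochberg adjusted p under 0.05 in edgeR's quasi-likelihood test, 6.47% had an unadjusted p under 0.05 and 11.7% had CPM values that did not overlap between the genotypes.

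Of the 10 genes, 2 did not overlap between the genotypes (20.0%, against 11.7% of all genes tested), both lower in miRNA-26b-/- mice, where 5.52% of all genes tested were lower and 6.13% higher without overlap, and nothing is read from this count because the choice of genes used the same contrast. The fitted log2 fold change of miRNA-26b-/- over miRNA-26b+/+ was negative for 7 genes and positive for 3, with a median of -0.21 against 0.0125 over all genes tested.

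**Figure D1:**
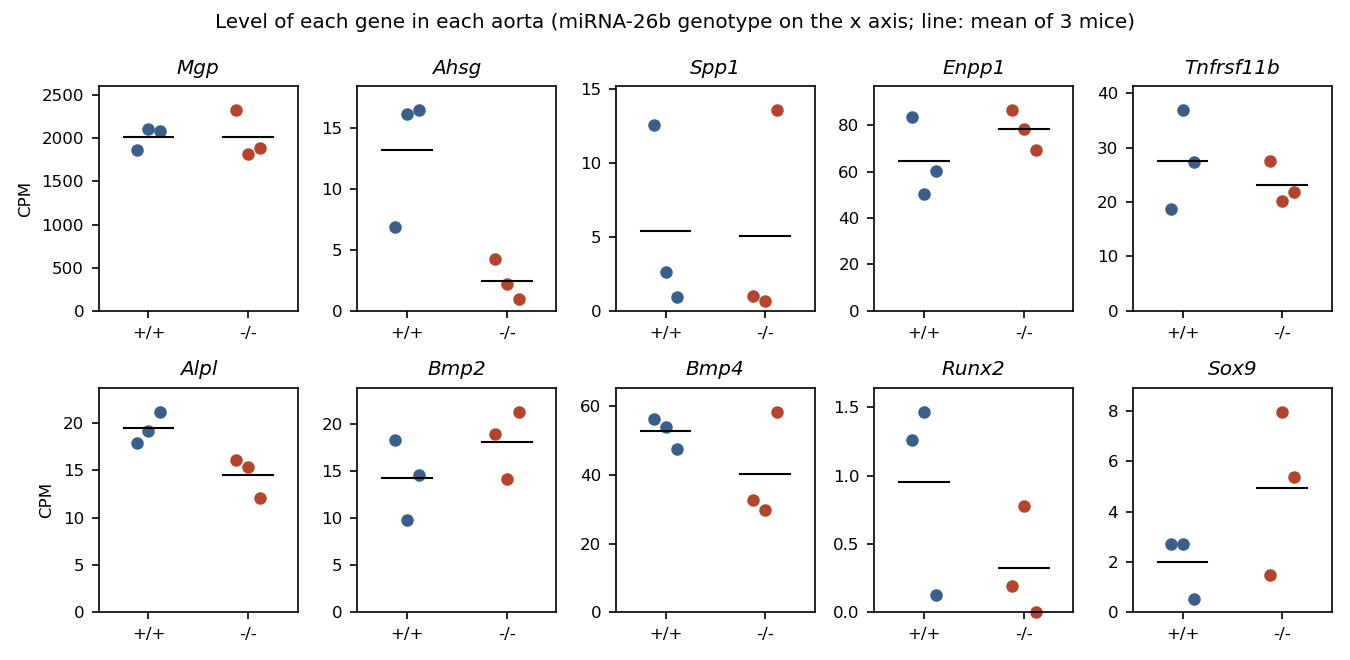
Level in CPM (y axis, starting at 0, with its own scale for each gene) of the 10 calcification genes in the aortas of 3 miRNA-26b+/+ mice (blue) and 3 miRNA-26b-/- mice (red), with a line at the mean of each group. The groups are apart for *Ahsg* and *Alpl* and overlap for the other 8 genes, and *Spp1* has 1 high mouse in each genotype.

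*Mgp* codes for matrix Gla protein, a vitamin K-dependent inhibitor of calcification that smooth muscle cells secrete. The gene (ENSMUSG00000030218.2) lies at chr6:136872435-136875823 of GRCm38 on the reverse strand. Its level was 2327, 1816 and 1892 CPM in miRNA-26b-/- mice 1 to 3 and 1865, 2106 and 2081 CPM in the miRNA-26b+/+ mice 1 to 3. The highest and the lowest mouse were both miRNA-26b-/-. The means were 2012 ± 276 CPM and 2017 ± 132 CPM (SD, n = 3 each), and the fitted log2 fold change was -0.02 (SE 0.132).

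*Ahsg* codes for fetuin-A and lies on the forward strand at chr16:22891277-22899449 (ENSMUSG00000022868.6). It had 109, 73 and 28 counts in miRNA-26b-/- mice 1 to 3, and 209, 450 and 510 counts in the miRNA-26b+/+ mice 1 to 3. As CPM these were 4.24, 2.19 and 1.0 against 6.92, 16.2 and 16.5. Every miRNA-26b-/- aorta was below every miRNA-26b+/+ aorta, and the levels differed 16.5-fold between the lowest and the highest mouse. The means were 2.48 ± 1.64 CPM in the miRNA-26b-/- mice and 13.2 ± 5.45 CPM in the miRNA-26b+/+ mice (SD, n = 3), and the fitted log2 fold change was -2.46 (SE 0.584), the lowest of the 10 genes. With any 1 library left out it lay between -3.02, without miRNA-26b-/- mouse 1, and -2.1, without miRNA-26b-/- mouse 3.

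The reads were counted without strand, and *Ahsg* shares 62 exon bases with the antisense gene *Gm30505*, so reads over these bases count for both genes and cannot be told apart. *Gm30505* was at 0 in each miRNA-26b-/- library and had 1, 39 and 134 counts in the miRNA-26b+/+ mice 1 to 3. With all of them subtracted from *Ahsg*, 208, 411 and 376 counts were left in the miRNA-26b+/+ mice, still above the 109 counts of the highest miRNA-26b-/- mouse. The log2 ratio of the mean CPM values was -2.41 before and -2.19 after this subtraction.

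Other liver genes were compared with *Ahsg* because hepatocytes are its main source. Of 13 hepatocyte markers, *Serpina1a*, *Fgg* and *Apob* had 0 counts in all 6 libraries. *Alb*, coding for albumin, had 59, 64 and 0 counts in the miRNA-26b-/- mice and 86, 0 and 0 in the miRNA-26b+/+ mice. Their summed level was 11.9 to 12.8 CPM in the miRNA-26b-/- mice and 5.74 to 9.13 CPM in the miRNA-26b+/+ mice, which is the opposite order to that of *Ahsg*. Different genes made up this sum in different libraries, as *Serpina1b* had 0 CPM in miRNA-26b-/- mouse 1 and 10.5 CPM in miRNA-26b-/- mouse 3, and 0 of the 4 markers tested had an unadjusted p under 0.05 in edgeR. The part of liver RNA in the *Ahsg* levels was not tested. The genes that follow *Ahsg* on chromosome 16 code for relatives of fetuin-A and had few counts. *Fetub*, coding for fetuin-B, had 0, 26 and 0 counts in the miRNA-26b-/- mice and 3, 22 and 16 in the miRNA-26b+/+ mice, *Hrg* had 0 in all, and the kininogen genes *Kng1* and *Kng2* reached at most 23 and 60 counts. *Kng2* had 0, 24 and 8 counts in the miRNA-26b-/- mice and 60, 33 and 0 in the miRNA-26b+/+ mice, with overlap. A count of 0 allows a level of up to 3 counts, which is 0.117 CPM in the smallest library, for counting error only.

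Over the 6 libraries, the genes whose log2 CPM was most like that of *Ahsg* were *Usp18*, a protease that removes the ubiquitin-like modifier ISG15 (Pearson r = 0.992), *Mtus2*, coding for a microtubule-associated protein (r = 0.991), and *Opa3*, coding for a mitochondrial membrane protein (r = 0.987). *Usp18* had 2.68, 1.56 and 0.86 CPM in the miRNA-26b-/- mice and 3.28, 4.92 and 5.71 CPM in the miRNA-26b+/+ mice. The 6 points share their libraries and genotypes, and 36 of the genes tested had r over 0.95 with *Ahsg*.

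*Spp1* codes for osteopontin, a phosphoprotein of bone and of activated macrophages that inhibits the growth of mineral crystals, and lies at chr5:104435118-104441050 on the forward strand. The levels in miRNA-26b-/- mice 1 to 3 were 1.01, 0.69 and 13.6 CPM, and those in the miRNA-26b+/+ mice 1 to 3 were 12.6, 2.62 and 0.974 CPM. A single mouse of each genotype, with 380 and 381 counts, was high and the other 4 had 23 to 73 counts. The means of 5.11 ± 7.37 and 5.4 ± 6.3 CPM (SD, n = 3) differed by far less than the spread. The fitted log2 fold change was -0.15 (SE 0.912), and 1 library decided its sign, as it was -2.72 without miRNA-26b-/- mouse 3 and 1.46 without miRNA-26b+/+ mouse 1.

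The spread of *Spp1* was wide for a gene of its level. Its SD within a genotype was 1.79 on the log2(CPM + 0.5) scale, against a median of 0.398 over all genes tested, and was larger than that of 98.2% of the 500 genes nearest in level. The 11 macrophage markers were all detected, and their summed level was 358, 423 and 991 CPM in miRNA-26b-/- mice 1 to 3 and 576, 618 and 636 CPM in the miRNA-26b+/+ mice 1 to 3. The macrophage sum was thus also highest in miRNA-26b-/- mouse 3, but was the lowest of its genotype in miRNA-26b+/+ mouse 1, whose *Spp1* level was high. The part of these cells in the *Spp1* levels was not tested. In bulk tissue, a change in the number of cells of a type and a change in RNA per cell cannot be told apart.

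*Enpp1* codes for the ectoenzyme that makes pyrophosphate from ATP and lies at chr10:24637914-24712159 on the reverse strand. Its levels were 86.5, 78.5 and 69.5 CPM in the miRNA-26b-/- mice and 83.4, 50.5 and 60.2 CPM in the miRNA-26b+/+ mice. The lowest 2 mice were miRNA-26b+/+, but the other miRNA-26b+/+ mouse was second among the 6. The means were 78.2 ± 8.48 and 64.7 ± 16.9 CPM (SD, n = 3), with a log2 fold change of 0.26 (SE 0.201) that was 0.12 without miRNA-26b+/+ mouse 2 and 0.46 without miRNA-26b+/+ mouse 1. The 3′ UTR match of *Enpp1* to the miRNA-26b-5p seed is printed above, and no test connects the match to this value.

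*Tnfrsf11b* codes for osteoprotegerin, the soluble decoy receptor of the cytokine RANKL, and lies at chr15:54250619-54278484 on the reverse strand. It had 27.5, 20.2 and 21.8 CPM in miRNA-26b-/- mice and 18.7, 36.9 and 27.3 CPM in the miRNA-26b+/+ mice. The lowest and the highest mouse were both miRNA-26b+/+. The means were 23.2 ± 3.86 and 27.6 ± 9.1 CPM (SD, n = 3), and the log2 fold change of -0.28 (SE 0.291) was -0.01 without miRNA-26b+/+ mouse 2 and -0.51 without miRNA-26b+/+ mouse 1. *Tnfrsf11b* and *Enpp1*, which both hold a seed match, thus had fold changes of opposite sign, each close to its standard error.

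Among the promoters, *Alpl* codes for tissue-nonspecific alkaline phosphatase and lies at chr4:137741733-137796384 on the reverse strand. Its levels were 16.1, 15.3 and 12.1 CPM in the miRNA-26b-/- mice and 17.9, 19.2 and 21.2 CPM in the miRNA-26b+/+ mice. All 3 miRNA-26b-/- aortas were lower, and the nearest mice of the genotypes stood at 16.1 and 17.9 CPM. The means were 14.5 ± 2.1 and 19.4 ± 1.67 CPM (SD, n = 3), with a log2 fold change of -0.44 (SE 0.294) that stayed between -0.52 and -0.33 with any 1 library left out. Its spread within a genotype, 0.171 on the log2(CPM + 0.5) scale, was larger than that of only 5.4% of the 500 genes nearest in level, so *Alpl* and *Spp1* were near opposite ends in this respect.

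The summed levels of other cell types were set beside *Ahsg* and *Alpl*. That of 7 Schwann cell markers was 352 to 534 CPM in the miRNA-26b-/- mice and 221 to 282 CPM in the miRNA-26b+/+ mice, without overlap, and 6 of the 7 had an unadjusted p under 0.05 (edgeR), all higher in miRNA-26b-/- mice. *Pmp22* alone made up 223 to 314 CPM of this sum in the miRNA-26b-/- mice and 186 to 208 CPM in the miRNA-26b+/+ mice. The sum of 6 skeletal muscle markers was 8.49 to 88.8 CPM in the miRNA-26b-/- mice and 3.18 to 11.1 CPM in the miRNA-26b+/+ mice, with overlap, and 5 of the 6 had an unadjusted p under 0.05, all higher in miRNA-26b-/- mice. Of these, *Mylpf*, coding for a myosin light chain of fast muscle fibres, had 91, 113 and 174 counts in miRNA-26b-/- mice 1 to 3 and 0 in each miRNA-26b+/+ mouse. *Mylpf*, *Myh4* and *Tnnt3*, and *Ncmap* of the Schwann cell markers, were over 1 CPM in miRNA-26b-/- libraries only. They passed the filter on low counts through these libraries, so nothing is read from the count of 5 of 6 or from *Ncmap* among the 6 of 7. The 8 sympathetic neuron markers summed to 369.8 CPM in miRNA-26b-/- mouse 2 and to 16.4 to 63.1 CPM in the other 5 mice. The lowest sum was that of miRNA-26b-/- mouse 1. Of the 6 tested, *Th*, *Tubb3* and *Slc6a2* had an unadjusted p under 0.05 (edgeR) with a positive fold change. Each was highest in miRNA-26b-/- mouse 2, and *Th* had 0 counts in the other miRNA-26b-/- mice. Over all genes tested, 3.4% were higher in miRNA-26b-/- mice at an unadjusted p under 0.05. Osteoblast and osteoclast markers summed to 71.9 to 91.9 and 58.7 to 74.3 CPM, with 0 of 4 tested genes at an unadjusted p under 0.05 and *Bglap*, *Dmp1* and *Calcr* at 0 in all libraries. *Acp5* and *Ctsk* made up most of these sums, at 21.6 and 37.0 of 71.9 CPM in miRNA-26b-/- mouse 1. *Sp7* and *Ibsp* reached at most 1.62 and 1.83 CPM. The part of these cell types in the *Ahsg* and *Alpl* levels was not tested.

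*Bmp2* codes for a BMP ligand that induces bone formation and lies at chr2:133552159-133562885 on the forward strand. The levels of 18.9, 14.1 and 21.3 CPM in the miRNA-26b-/- mice and 18.3, 9.8 and 14.6 CPM in the miRNA-26b+/+ mice overlapped. The means were 18.1 ± 3.67 and 14.2 ± 4.24 CPM (SD, n = 3), and the log2 fold change of 0.31 (SE 0.327) was 0.13 without miRNA-26b+/+ mouse 2 and 0.52 without miRNA-26b+/+ mouse 1.

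*Bmp4*, coding for the closest relative of BMP2, lies at chr14:46383520-46390669 on the reverse strand. Its levels in miRNA-26b-/- mice 1 to 3 were 32.8, 29.7 and 58.4 CPM, and in the miRNA-26b+/+ mice 1 to 3 they were 56.3, 54.0 and 47.6 CPM. The first 2 miRNA-26b-/- mice were the lowest of all, and the third was the highest. The means of 40.3 ± 15.8 and 52.6 ± 4.51 CPM (SD, n = 3) gave a log2 fold change of -0.41 (SE 0.247), which was -0.77 without miRNA-26b-/- mouse 3 and -0.21 without miRNA-26b-/- mouse 2. *Bmp4* shares 89 exon bases with *Gm15217* on the other strand, which had 0 to 59 counts. Subtracting these moved the log2 ratio of means from -0.39 to -0.43.

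*Bmp4* split the libraries as the endothelial markers did, since 6 of these 7 had miRNA-26b-/- mice 1 and 2 below the other 4 libraries and *Kdr* did not. *Pecam1*, an adhesion molecule of endothelial junctions, had 184, 176 and 724 CPM in the miRNA-26b-/- mice and 495, 622 and 582 CPM in the miRNA-26b+/+ mice. *Bmp6*, a BMP ligand of the same family, was split alike at 48.7, 24.8 and 161 CPM against 118, 102 and 130.2 CPM. *Bmp2* was not, since miRNA-26b-/- mouse 1 had the second highest level of the 6. The summed macrophage markers, given above, were also lowest in miRNA-26b-/- mice 1 and 2, so this split was not particular to endothelial markers. The part of either cell type in the *Bmp4* levels was not tested.

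**Figure D2:**
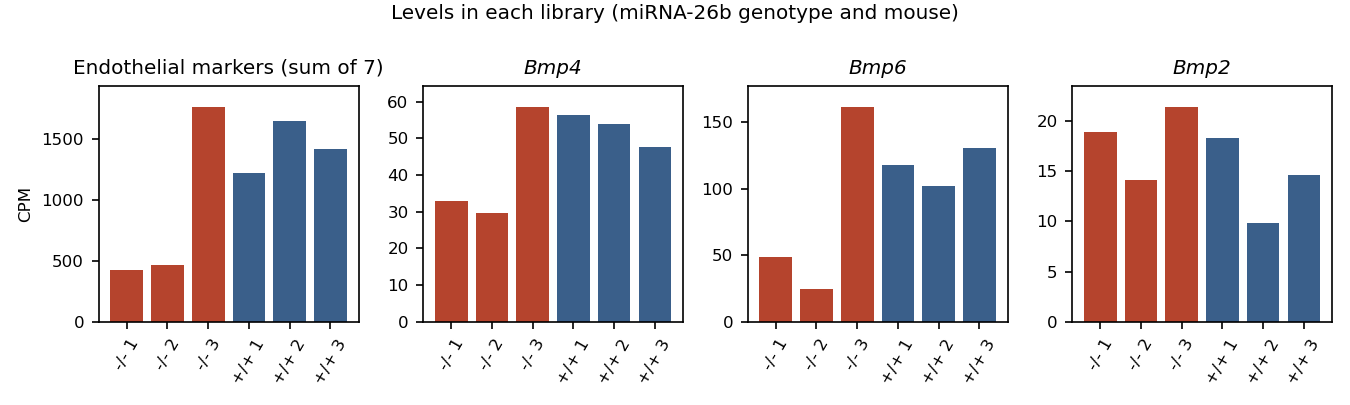
Bars show the level in CPM (y axis, starting at 0) of the summed endothelial markers, *Bmp4*, *Bmp6* and *Bmp2* in each of the 3 miRNA-26b-/- (red) and 3 miRNA-26b+/+ (blue) libraries, 1 bar per mouse. miRNA-26b-/- mice 1 and 2 have the lowest bars for the endothelial sum, *Bmp4* and *Bmp6*, but not for *Bmp2*, whose lowest bar is miRNA-26b+/+ mouse 2.

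*Runx2* codes for the transcription factor that commits cells to the osteoblast lineage and lies at chr17:44495987-44814797 on the reverse strand. It had 5, 26 and 0 counts in the miRNA-26b-/- mice and 38, 41 and 4 counts in the miRNA-26b+/+ mice, which is at most 1.47 CPM. Each genotype held a library with fewer than 5 counts, and the values overlapped. The means were 0.325 ± 0.406 and 0.953 ± 0.721 CPM (SD, n = 3), and the log2 fold change of -1.4 had a standard error of 1.39. Without miRNA-26b-/- mouse 2 the fitted value was -3.28, and without miRNA-26b-/- mouse 3 it was -0.84. In miRNA-26b-/- mouse 3, the 0 counts allow a level of up to 0.108 CPM.

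The genes most like *Runx2* over the 6 libraries were *Pigq*, an enzyme gene of glycosylphosphatidylinositol anchor synthesis (r = 0.995), *AC122442.1* (r = 0.989) and *Gm49373* (r = 0.985), and 40 genes had r over 0.95. *Pigq* had 40.2 to 50.1 CPM in the miRNA-26b-/- mice and 41.9 to 53.8 CPM in the miRNA-26b+/+ mice. With so few *Runx2* counts this likeness is a description of 6 libraries only.

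*Sox9* codes for the transcription factor that starts cartilage formation and lies at chr11:112782224-112787760 on the forward strand. It had 1.48, 7.98 and 5.38 CPM in the miRNA-26b-/- mice and 2.71, 2.73 and 0.519 CPM in the miRNA-26b+/+ mice. The highest 2 mice were miRNA-26b-/-, but miRNA-26b-/- mouse 1 was below 2 of the miRNA-26b+/+ mice. The means were 4.94 ± 3.27 and 1.99 ± 1.27 CPM (SD, n = 3), and the log2 fold change of 1.39 (SE 0.748) was 0.82 without miRNA-26b-/- mouse 2 and 0.91 without miRNA-26b+/+ mouse 3. Of 11 chondrocyte markers, *Col2a1*, *Col9a3*, *Matn1* and *Cnmd* had 0 counts in all libraries. Their summed level was 67.1, 104 and 172 CPM in miRNA-26b-/- mice 1 to 3 and 103, 112 and 115 CPM in the miRNA-26b+/+ mice 1 to 3. The chondrocyte sum and *Sox9* were both lowest among the miRNA-26b-/- mice in mouse 1. However, *Sox9* was highest in miRNA-26b-/- mouse 2 and the chondrocyte sum in miRNA-26b-/- mouse 3. Among the miRNA-26b+/+ mice, mouse 3 had the lowest *Sox9* level and the highest chondrocyte sum. *Comp* and *Acan* made up most of the sum, at 110.2 and 51.3 of 172 CPM in miRNA-26b-/- mouse 3. The other markers tested, *Col11a2*, *Matn3* and *Hapln1*, were each highest in miRNA-26b-/- mouse 2, as *Sox9* was. In miRNA-26b+/+ mice, mouse 3 was lowest for *Matn3* and *Hapln1* but not for *Col11a2*. *Col11a2* and *Matn3* passed the filter on low counts through the miRNA-26b-/- libraries. The part of cartilage cells in the *Sox9* levels was not tested.

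**Figure D3:**
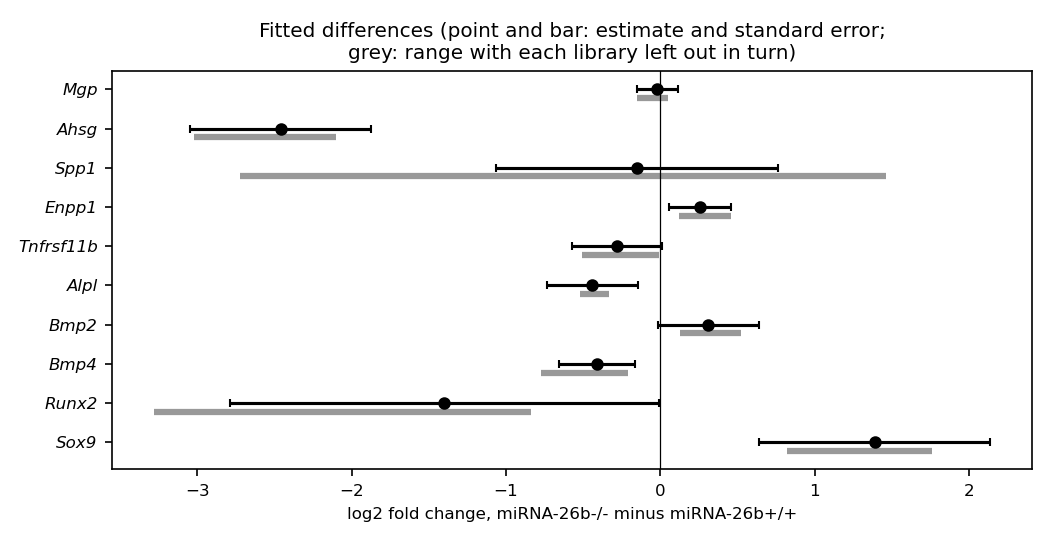
Fitted log2 fold change of miRNA-26b-/- over miRNA-26b+/+ mice (x axis, 0 at the vertical line) for the 10 genes, with the standard error of the edgeR fit as a black bar and the range over fits that leave out 1 library as a grey bar. The grey bars of *Mgp* and *Spp1* cross 0, *Spp1* from -2.72 to 1.46, and that of *Ahsg* stays between -3.02 and -2.1. *Runx2* has 4 such fits, because it failed the count filter without miRNA-26b+/+ mouse 1 or 2.

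Levels of different genes were compared per exon length, as CPM per kilobase of exon (RPKM). *Mgp* had a mean of 1697 RPKM (range 1529.6 to 1960.4 over the 6 libraries) and ranked 17 among the genes tested. *Bmp4* followed at 20.7 RPKM (13.2 to 26.0), then *Tnfrsf11b* at 9.02 (6.65 to 13.1) and *Enpp1* at 6.97 (4.93 to 8.43). *Bmp2* at 4.55, *Alpl* at 4.21, *Ahsg* at 3.57 and *Spp1* at 3.19 RPKM lay close together. *Sox9* at 0.838 and *Runx2* at 0.0723 RPKM were the lowest. The ranges of neighbours in this order did not overlap between *Mgp* and *Bmp4* or between *Bmp4* and *Tnfrsf11b*, and overlapped for every other pair of neighbours. Within libraries, *Enpp1* was above *Bmp2* and *Sox9* above *Runx2* in 6 of 6, and *Spp1* above *Sox9* in 5 of 6. The inhibitors and the promoters were interleaved in this order, with the inhibitors at places 1, 3, 4, 7 and 8 and the promoters at places 2, 5, 6, 9 and 10.

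**Figure D4:**
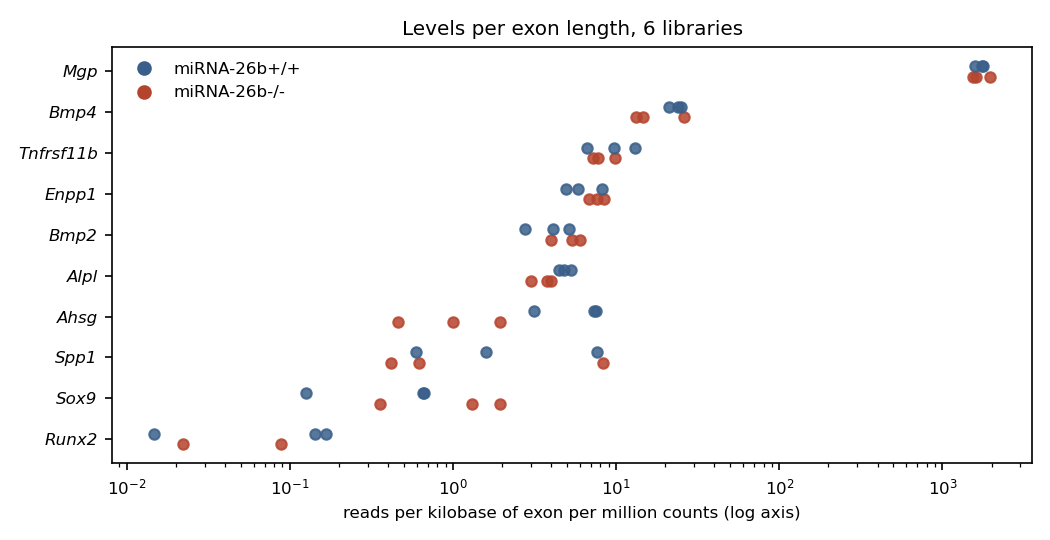
Level per exon length (x axis, RPKM, log axis) of the 10 genes in each miRNA-26b+/+ (blue) and miRNA-26b-/- (red) library, in the order of the mean. *Mgp* stands at 1529.6 RPKM or more and every other gene at 26.0 or less, and the *Runx2* value of 0 in miRNA-26b-/- mouse 3 cannot be drawn on this axis.

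The other genes of these pathways were counted from 9 lists of 119 genes in all, of which 90 passed the filter and 15 had 0 counts in every library. With edgeR's quasi-likelihood test, 10 of the 90 had an unadjusted p under 0.05 (11.1%, against 6.47% of all genes tested), of which 3 were higher in miRNA-26b-/- mice, where 3.4% of all genes were, and 7 were lower, against 3.07%. None passed adjustment over all genes (adjusted p of the 10 between 0.731 and 0.768), and none did with DESeq2 or limma voom. *Col11a2*, among the 3 higher, passed the filter on low counts through the miRNA-26b-/- libraries. Nothing is read from the share of 11.1%, because the lists were chosen with earlier results of these data known. Without miRNA-26b-/- mouse 3, 19 had an unadjusted p under 0.05 (10.8% of all genes did in that fit) and *Bmp6* and *Itga5* passed the adjustment, and without miRNA-26b+/+ mouse 2 the count was 4. It was 6 without miRNA-26b-/- mouse 2 and 6 without miRNA-26b+/+ mouse 3. The Schwann cell sum given above was also apart between the genotypes, and its part in these counts was not tested.

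**Figure D5:**
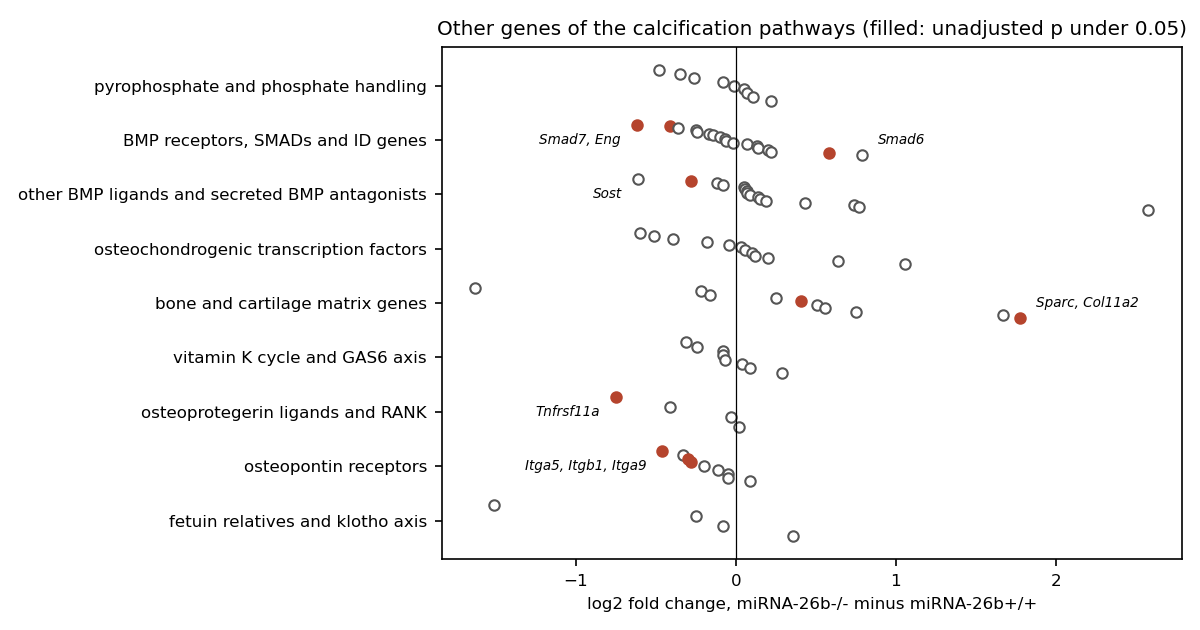
Each circle is the fitted log2 fold change (x axis, miRNA-26b-/- over miRNA-26b+/+ mice, 3 each) of 1 of the 90 tested pathway genes, in a row per list. The 10 filled circles, named beside each row, have an unadjusted p under 0.05 in edgeR, 7 of them left and 3 right of 0, and none passed adjustment over all genes.

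In the pyrophosphate and phosphate list, which holds the partners of ENPP1 and alkaline phosphatase, 0 of 9 tested genes had an unadjusted p under 0.05. *Entpd1*, an ectoenzyme that also consumes ATP, was its most abundant gene at 60.5 RPKM, with a log2 fold change of -0.08 (SE 0.128). The phosphate transporter gene *Slc20a2* had 86.0, 93.9 and 66.2 CPM in the miRNA-26b-/- mice and 103, 102 and 106 CPM in the miRNA-26b+/+ mice without overlap, at an unadjusted p = 0.0645 (edgeR, adjusted p = 0.769, n = 3 each), and is named here after its values were seen.

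Among 18 BMP receptors, SMADs and ID genes, 3 had an unadjusted p under 0.05 (16.7%, against 6.47% of all genes tested). Nothing is read from this count either, because of how the lists were chosen. *Smad7*, coding for an inhibitory SMAD of the TGF-β and BMP pathways, had 34.3, 42.8 and 37.0 CPM in the miRNA-26b-/- mice and 67.0, 42.1 and 65.5 CPM in the miRNA-26b+/+ mice, with a log2 fold change of -0.62 (SE 0.222, unadjusted p = 0.0131, adjusted p = 0.736). *Smad6*, coding for the inhibitory SMAD that acts mainly on BMP signals, differed in the other direction, at 77.7, 108 and 67.7 against 66.3, 52.9 and 49.6 CPM without overlap (log2 fold change 0.58, SE 0.207, unadjusted p = 0.0141, adjusted p = 0.736). *Eng*, an endothelial co-receptor of BMP ligands, was lower at 102, 151 and 157 against 162, 187 and 192 CPM (log2 fold change -0.41, SE 0.176, unadjusted p = 0.0324, adjusted p = 0.741). Its lowest library was miRNA-26b-/- mouse 1, 1 of the 2 with a low endothelial sum. The fold change was -0.25 without that library (unadjusted p = 0.144 in edgeR), and the unadjusted p was 0.0917 without miRNA-26b+/+ mouse 2 and 0.0951 without miRNA-26b+/+ mouse 3. *Smad6* had a fold change of 0.36 without miRNA-26b-/- mouse 2 (unadjusted p = 0.124) and an unadjusted p of 0.0606 without miRNA-26b+/+ mouse 3, and *Smad7* lost its unadjusted call without miRNA-26b+/+ mouse 1 (0.0602) or mouse 3 (0.0556). *Id3*, a target gene of BMP signals and the most abundant of the list, had a log2 fold change of -0.25 (SE 0.173).

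Of 23 other BMP ligands and secreted antagonists, 16 were tested and *Sost* alone had an unadjusted p under 0.05 (6.25%, against 6.47% of all genes tested). *Sost* codes for sclerostin, an antagonist of WNT signals known from osteocytes, and was abundant in the aorta at 797 RPKM. Its level was 1598, 1424 and 1468 CPM in the miRNA-26b-/- mice and 2041, 1651 and 1699 CPM in the miRNA-26b+/+ mice. The groups did not overlap, with a log2 fold change of -0.28 (SE 0.124, unadjusted p = 0.0411, adjusted p = 0.749, edgeR, n = 3 each). The unadjusted p was under 0.05 in 10 of 14 alternatives, and was 0.132 and 0.0708 without miRNA-26b-/- mouse 2 or 3 and 0.181 and 0.0515 without miRNA-26b+/+ mouse 1 or 2. *Bmp5* and *Bmp10* had 0 counts in all libraries.

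None of 12 tested transcription factors of bone and cartilage had an unadjusted p under 0.05 in edgeR (0 with an adjusted p under 0.05). *Atf4*, a stress-responsive factor and the most abundant of them at 51.4 RPKM, had a log2 fold change of 0.03 (SE 0.17). *Sp7*, the factor downstream of RUNX2, had 0 to 54 counts per library.

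In the list of bone and cartilage matrix genes, 8 of 21 had 0 counts in all libraries, among them the osteocalcin genes *Bglap*, *Bglap2* and *Bglap3* and the cartilage collagen gene *Col2a1*. *Sparc*, coding for osteonectin, a collagen-binding protein that bone and many soft tissues make, was at 1195 RPKM. It had 4794, 4745 and 6054 CPM in the miRNA-26b-/- mice and 3875, 3538 and 4160.4 CPM in the miRNA-26b+/+ mice, each miRNA-26b-/- mouse above each miRNA-26b+/+ mouse. The log2 fold change was 0.41 (SE 0.129, unadjusted p = 0.00593, adjusted p = 0.734, edgeR, n = 3 each), and the unadjusted p stayed under 0.05 in 14 of 14 alternatives. *Col11a2*, a minor collagen gene of cartilage, had 34, 189 and 78 counts against 21, 40 and 27 (log2 fold change 1.78, SE 0.833, unadjusted p = 0.0481, adjusted p = 0.768), with overlap. Its unadjusted p was under 0.05 in 7 of 14 alternatives, and the fold change was 1.06 without miRNA-26b-/- mouse 2. Of the miRNA-26b+/+ libraries, only mouse 2 exceeded 1 CPM, at 1.44 CPM. *Col11a2* thus passed the filter on low counts through the miRNA-26b-/- libraries, and nothing is read from its call.

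Matrix Gla protein needs the vitamin K cycle for its activity, and 8 genes of this cycle and of the related GAS6 axis were counted, of which 0 had an unadjusted p under 0.05 in edgeR. *Gas6*, coding for another vitamin K-dependent protein, was the most abundant at 331 RPKM. It had 839, 829.6 and 917 CPM in the miRNA-26b-/- mice and 789, 748 and 942 CPM in the miRNA-26b+/+ mice, with overlap and a log2 fold change of 0.04 (SE 0.131).

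Around osteoprotegerin, the ligand gene *Tnfsf11*, coding for RANKL, had 1 count in all 6 libraries together. *Tnfrsf11a*, coding for its receptor RANK, had 27.9, 29.1 and 33.3 CPM in the miRNA-26b-/- mice and 56.4, 42.8 and 50.7 CPM in the miRNA-26b+/+ mice, so that all miRNA-26b-/- mice were below all miRNA-26b+/+ mice. The log2 fold change was -0.75 (SE 0.211, unadjusted p = 0.00296, adjusted p = 0.731, edgeR, n = 3 each), with an unadjusted p under 0.05 in 14 of 14 alternatives. *Tnfsf10*, the gene of another ligand of osteoprotegerin, had 4.86 to 12.1 and 8.53 to 12.2 CPM and did not pass the test (unadjusted p = 0.369, edgeR, n = 3 each).

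Of 9 tested genes of osteopontin receptors, 3 integrin chains had an unadjusted p under 0.05 (33.3%, against 6.47% of all genes tested). All 3 were lower in miRNA-26b-/- mice, as 3.07% of all genes tested were. Nothing is read from this count, because the lists were chosen with earlier results of these data known. *Itgb1*, the common β chain, had 2354, 2149 and 2181 CPM against 2692, 2699.9 and 2763 CPM, without overlap (log2 fold change -0.3, SE 0.114, unadjusted p = 0.0184, adjusted p = 0.736). *Itga9* was also without overlap, at 856, 917 and 908 against 966, 1047 and 1214 CPM (log2 fold change -0.28, SE 0.13, unadjusted p = 0.0445, adjusted p = 0.756). *Itga5*, the chain of the fibronectin receptor, had 296, 265 and 487 against 399.6, 484 and 539 CPM (log2 fold change -0.46, SE 0.201, unadjusted p = 0.0369, adjusted p = 0.744). Its fold change ran from -0.29 without miRNA-26b-/- mouse 2 to -0.77 without miRNA-26b-/- mouse 3. The unadjusted p was under 0.05 in 12 of 14 alternatives for *Itgb1*, which lost it without miRNA-26b-/- mouse 2 or miRNA-26b+/+ mouse 2, and in 9 of 14 each for *Itga9* and *Itga5*. *Itga9* lost it with any 1 library left out except miRNA-26b+/+ mouse 1, and *Itga5* without miRNA-26b-/- mouse 1 or 2, without miRNA-26b+/+ mouse 2 or 3, and with the earlier quasi-likelihood method of edgeR. The lowest libraries of *Itga5* were miRNA-26b-/- mice 1 and 2, those with the low endothelial sums, and the part of endothelial cells in this value was not tested.

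Among relatives of fetuin-A and genes of the klotho axis, which controls phosphate in the body, 4 of 9 were tested and 0 had an unadjusted p under 0.05. *Hrg*, *Fgf23* and *Casr* had 0 counts in all libraries, and *Fgfr1*, coding for the receptor that FGF23 shares with klotho, had a log2 fold change of -0.08 (SE 0.131).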

How the data were processed

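Total RNA of 6 mouse aortas was sequenced from TruSeq libraries. Reads were mapped by the authors to GRCm38 (mm10) using STAR, and they deposited read counts per gene from featureCounts 1.6.4, over exons of each gene name of GENCODE release 21 for mouse per the file header, without strand, and with a read over several genes counted for each. The deposited count table also holds an exon length in bases, used for RPKM. A second deposited table with log2 CPM and the authors' own comparison was not used here. A normalized value below is CPM, the share of a gene in its library's total counts, unless named otherwise.

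A gene entered if its counts summed to 2 or more and exceeded 1 CPM in 2 or more libraries. After TMM normalization, genotypes were compared in edgeR 4.0.16 (R 4.3.3) by quasi-likelihood (prior count 0.125, Benjamini-Hochberg adjustment over 16017 genes). Alternatives were other normalizations and filters, DESeq2 1.42.0, limma voom 3.58.1, the earlier quasi-likelihood method of edgeR, a prior count of 2 and leaving out each library. Subtracting the counts of overlapping genes was added after seeing the data. 1 gene of the lists is not reported here and was left out of their counts. The members and lists were chosen with earlier results of these data known. Named were the 10 genes, in each list the gene with the highest level per length and up to 3 with the smallest unadjusted p under 0.05, *Mir26b*, *Ctdsp1*, the 3 genes most correlated with each of the 2 genes of largest fold change, and markers that move with a gene. Neighbouring and overlapping genes, *Bmp6*, *Slc20a2*, *Sp7*, *Tnfsf11*, *Tnfsf10*, single markers within a sum and genes at 0 were named after their values were seen. Mice are numbered in the order of the samples, which pairs nothing. No source says that animals were pooled or how litters were shared, so p-values measure the spread between these 6 samples. The limit for a count of 0 is 3 counts and allows for counting error alone, since the reads carry no molecular identifiers and may repeat a molecule.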

Additional observations from a re-analysis of the deposited data

How the results depend on the processing

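Of 140 fold changes of the 10 genes under the alternatives, 138 moved by less than the spread between replicates. Those of *Spp1* and *Runx2* moved by more with 1 library left out, as given above. The 140 include the log2 ratios of means after subtraction for *Ahsg* and *Bmp4*. A change of sign was not counted as a move here, and *Spp1* changed sign in some fits to 0.27, 0.46 and 1.46. The order per length was the same with TMM-scaled libraries. With the longest seed match only, 0 of the 10 genes held one. Over all genes, 1036 had an unadjusted p under 0.05, with a range of 686 (without miRNA-26b+/+ mouse 3) to 1692 (without miRNA-26b-/- mouse 3) over fits without 1 library. The count with an adjusted p under 0.05 was 1, and became 57 with DESeq2, 3 with limma voom, 0 with the earlier quasi-likelihood method, and 0 to 82 with 1 library left out (82 without miRNA-26b-/- mouse 3). The 10 pathway genes with an unadjusted p under 0.05 became 4 to 19 with 1 library left out, of which 4 and 8 were among the 10, and their number was 10 with DESeq2, 11 with limma voom and 9 with the earlier method. The cause was not tested. Of 210 fold changes of the named pathway genes, 175 kept their direction and side of the threshold, 30 no longer passed, 1 newly passed and 4 reversed. Those reversed were *Atf4* (-0.1 to 0.09 with 1 library left out) and *Gas6* (-0.01 to 0.15), both near 0. The adjusted p of *Itga5* ranged from 0.0367 (without miRNA-26b-/- mouse 3) to 0.991. No paired analysis was possible because the replicate numbers are only the order of the samples. *Runx2* and *Fetub*, with at most 41 and 26 counts in a library, are among the genes with few counts.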
